A study of Mus musculus with 41 samples.

Results

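Endothelial identity genes are the genes by which the lining cells of blood vessels are recognised, and 10 of them were followed here, of 20913 genes tested and 30175 gene names on the array. The 10 were Pecam1, Cdh5, Kdr, Flt1, Tek, Tie1, Vwf, Eng, Esam and Cldn5. The rule lists them by name and uses no measured value, though it was set with earlier results of these data known, and where a gene had several probes the brightest on average was used. All 10 were present on the array and passed the filter on low values. Each array measured the RNA of a whole piece of tumor, so fewer endothelial cells and less RNA per endothelial cell cannot be told apart.

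The tumors arose in fragments of BALB/c mammary epithelium that lacked Trp53, transplanted into the cleared fat pads of wild type BALB/c females, so that host tissue within a tumor, vessels included, carried Trp53. Hosts were fed a low fat diet (LFD) or a high animal fat diet (HFD) lifelong, or were switched after puberty from HFD to LFD (HFD-LFD) or from LFD to HFD (LFD-HFD). The 29 epithelial tumors came from 8 LFD, 8 HFD, 7 HFD-LFD and 6 LFD-HFD samples (14 early and 15 late), and the 12 spindle cell tumors from 3 samples of every regimen (3 early and 9 late). RNA of each tumor was hybridised together with Universal Mouse Reference RNA, which is pooled from mouse cell lines. The labels carry 38 numbers on 41 tumors, with 3 numbers on a pair of tumors each, and nothing in them says whether such pairs share a host, so the p-values measure the spread between tumors. Early and late stand for tumor onset before and after an age limit set by the study.

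Endothelial cells are joined to each other by the adhesion molecules Pecam1 (CD31), Cdh5 (VE-cadherin), Esam and Cldn5. They receive growth signals through the VEGF receptors Kdr (VEGFR2) and Flt1 (VEGFR1), through the angiopoietin receptor Tek (Tie2) and its orphan partner Tie1, and through Eng (endoglin), a co-receptor for ligands of the TGF-beta family. Vwf (von Willebrand factor) is a clotting protein that they store and secrete. Several of these genes are also used by blood cells, Pecam1 and Vwf by platelets, and Tek by some macrophages. The study had scored how much of a tumor section stained for CD31, the product of Pecam1, and asked whether vessel density differed by histology, diet and onset. The array values address the same question at the level of RNA.

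The probes of Pecam1 and Tie1, which differed between the histologies below, and of Tek and Vwf, which did not pass the test, are shown as examples of what was measured. Each is 60 bases long and is given 5′ to 3′ in lower case, with no base marked, at its position on NCBI37/mm9 as listed in the deposited files. The Pecam1 probe lies at chr11:106540864-106540923 on the reverse strand, Tie1 at chr4:118144132-118144191 on the reverse strand, Tek at chr4:94540624-94540683 on the forward strand and Vwf at chr6:125636551-125636610 on the forward strand.
Pecam1: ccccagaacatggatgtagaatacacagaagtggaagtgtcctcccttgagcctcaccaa
Tie1: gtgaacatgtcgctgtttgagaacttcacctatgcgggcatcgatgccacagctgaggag
Tek: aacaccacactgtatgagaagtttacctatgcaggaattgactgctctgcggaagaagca
Vwf: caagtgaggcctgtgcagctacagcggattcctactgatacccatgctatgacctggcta

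Endothelial genes are known to be switched on by factors of the ETS family, and the stretch before the start site was read from RefSeq (build GRCm38.p6) for the 6 of the 10 genes that the promoter table listed. The start is the one that table uses, and for Flt1, Kdr and Tek the stretch lies wholly or partly inside the span RefSeq gives the gene. In the 250 bases upstream of this start, the ETS core AGGAAG was searched on both strands and was found in 3 of the 6, Flt1, Tie1 and Eng. Among 27025 promoters of the same length 29.2% held it. The GATA motif AGATAA, held by 10.3% of promoters, the SOX motif ACAATG, held by 11.0%, and the joint FOX and ETS motif AACAGGAA, held by 2.16%, were in none of the 6. The joint motif shares the letters AGGAA with the ETS core, so matches of these can overlap. A match is a string of letters in this window and says nothing of binding. The 3 stretches are shown because Tie1 and Eng differed between the histologies and Flt1 did not pass the test, and capitals mark the ETS core, which reads CTTCCT where it lies on the opposite strand. Tie1 is at chr4:118489850-118490099 on the reverse strand, Eng at chr2:32646345-32646594 on the forward strand and Flt1 at chr5:147726012-147726261 on the reverse strand.
Tie1: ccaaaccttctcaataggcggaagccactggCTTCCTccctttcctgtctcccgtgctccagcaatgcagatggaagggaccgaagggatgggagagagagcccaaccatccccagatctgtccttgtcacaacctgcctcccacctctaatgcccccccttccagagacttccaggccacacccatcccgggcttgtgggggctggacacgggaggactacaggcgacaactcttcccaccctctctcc
Eng: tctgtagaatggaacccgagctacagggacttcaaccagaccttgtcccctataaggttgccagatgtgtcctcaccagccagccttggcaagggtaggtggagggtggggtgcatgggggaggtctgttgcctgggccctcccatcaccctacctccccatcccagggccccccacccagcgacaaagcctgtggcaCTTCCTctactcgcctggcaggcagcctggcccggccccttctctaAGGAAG
Flt1: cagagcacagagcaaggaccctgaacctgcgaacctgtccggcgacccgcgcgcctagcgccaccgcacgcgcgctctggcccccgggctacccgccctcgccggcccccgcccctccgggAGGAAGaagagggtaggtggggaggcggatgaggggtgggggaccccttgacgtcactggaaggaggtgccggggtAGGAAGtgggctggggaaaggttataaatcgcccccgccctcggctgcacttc

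Values are log2 ratios of the processed signal of Cy5 over Cy3, with the tumor in Cy5 as the labels state. The methods of the study give Cy5 to the reference instead, which would turn the sign of every log2 ratio and of every difference between ratios below, and swap the names of the channels. In a check of the channels, the median log2 ratio over 5 probes of Y-linked genes, which female tumors lack, was under 0 on 38 of 41 arrays, from -2.36 to 0.26. Over all arrays the median standard deviation of a gene was 0.679 in Cy5 and 0.307 in Cy3. In the tumor channel 52.4% to 94.9% of spots were well above background on epithelial and 59.1% to 72.7% on spindle cell arrays. All 10 genes were well above background in that channel on all 41 arrays, except Tek on 40. Precision is limited by the number of arrays. The labels of 3 HFD epithelial tumors (40R4A, 57R and 65R) differ between the deposited matrix and the scanner files, and those of the scanner files were used. The spindle cell arrays had their own slides, scan session, scanner and software version, so that the histologies cannot be told apart from the scan sessions. The epithelial tumors 42L4B and 60L, both HFD early, had a slide and a scan session to themselves. Their values therefore cannot be told apart from that slide and session. Of the 8 slides that held epithelial tumors, 7 held a single regimen, so slide and regimen are largely tied as well.

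Tumor 60L (HFD, early) had 22.02% of its spots marked as outliers, against a median of 0.611% in epithelial tumors, and it gave a value for 3 of the 10 genes only. The HFD early tumor 42L4B gave 7. Among the spindle cell tumors, M76R (LFD-HFD, late) and M32L (LFD, late) stood apart in these genes. M76R was highest or second highest among the spindle cell tumors in all 10 genes, and M32L in 7 of the 9 it had a value for. The adipocyte markers moved with them: the mean log2 ratio over 7 adipocyte genes was 3.47 in M76R and 1.84 in M32L, whereas the median of the 12 spindle cell tumors was -4.04. The part of fat tissue in the values of these tumors was not tested.

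**Figure D1:**
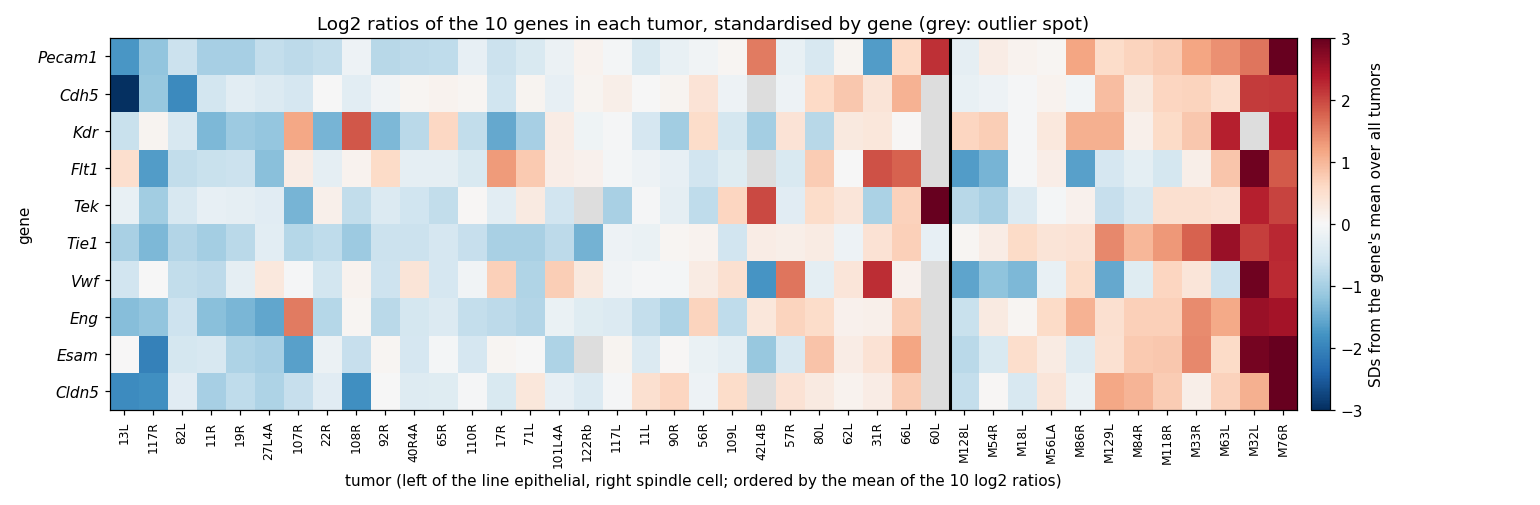
Log2 ratios of the 10 endothelial identity genes (rows) in each of 41 tumors (columns), as standard deviations from the mean of the gene over all tumors, with outlier spots in grey. Columns are ordered within each histology by the mean of the log2 ratios that had a value. The spindle cell tumors M32L and M76R were high in nearly every row, and 13L, an LFD tumor, was lowest in Pecam1, Cdh5 and Cldn5 among epithelial tumors.

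Spindle cell tumors were compared with epithelial tumors to ask whether their vessel genes differed. Of the 10 genes, 6 passed an adjusted p of 0.05 and were higher in spindle cell tumors (limma with Benjamini-Hochberg adjustment over 20913 genes), namely Tie1, Cldn5, Pecam1, Esam, Eng and Kdr, and none was lower. Cdh5 was just short of the threshold, and Flt1, Vwf and Tek did not pass. Of all genes tested, 7.93% were called higher and 12.2% lower in spindle cell tumors. The median log2 difference was 0.82 over the 10 genes and -0.07 over all genes.

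Of the junction molecules, Pecam1 had the lowest adjusted p and Cldn5 the largest difference. For Pecam1, epithelial tumors spanned log2 ratios of -1.75 (13L) to 1.01 (60L) around a median of -0.84. Spindle cell tumors spanned -0.72 (M128L) to 1.62 (M76R) around a median of -0.02. All 12 spindle cell tumors lay above the epithelial median, though the groups overlapped. Means of -0.78 ± 0.57 (SD, n = 29) and 0.09 ± 0.63 (SD, n = 12) gave a log2 difference of 0.87 (standard error 0.20, 1.82-fold, limma adjusted p = 0.00183).

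Cldn5, the main claudin of endothelial tight junctions, spanned -4.48 to -1.71 (median -2.76) in epithelial tumors and -3.25 to 1.70 (median -1.95) in spindle cell tumors. The top of the spindle range was M76R, and 5 of 12 spindle cell tumors were above the highest epithelial tumor. The log2 difference was 0.998 (standard error 0.32, limma adjusted p = 0.0233). Without M76R it was 0.68 and was no longer called (limma adjusted p = 0.0575), and with slide as a random block it was 1.003 with a limma adjusted p of 0.0619.

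Esam, an adhesion molecule of tight junctions, spanned -2.13 to 0.33 (median -0.80) in epithelial tumors and -1.20 to 1.76 (median -0.15) in spindle cell tumors. The groups overlapped widely, with 3 of 12 spindle cell tumors above every epithelial tumor. The log2 difference was 0.84 (standard error 0.23, limma adjusted p = 0.0079).

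Cdh5 spanned -6.17 (13L) to 0.10 (median -1.14) in epithelial tumors and -1.38 to 1.38 (median -0.64) in spindle cell tumors. The value of 13L was far below the rest, with a tumor signal of 49.7, where the median epithelial tumor had 1659. The log2 difference of 0.97 (standard error 0.37) had a limma adjusted p of 0.0567, and it was 0.79 with an adjusted p of 0.0299 when 13L was left out. It also passed with any of 4 other tumors left out, with log2 differences from 1.02 to 1.06. Cdh5 was called in 7 of 18 alternatives and not in the other 11. The 7 include normexp with loess (0.84, limma adjusted p = 0.0386), the authors' matrix (0.98, adjusted p = 0.0481) and a looser threshold of 0.10. The difference was further from the threshold without M32L, M76R and M86R (0.66, adjusted p = 0.225), with late tumors only (1.01, adjusted p = 0.201) and with a random block for slide (0.98, adjusted p = 0.12).

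Among the receptors, Tie1 separated the histologies best in the ratio. Epithelial tumors spanned log2 ratios of -1.76 to -0.32 (median -1.24) and spindle cell tumors -0.77 to 0.96 (median -0.02). All 12 spindle cell tumors exceeded the epithelial median and 7 exceeded the highest epithelial tumor. Means of -1.13 ± 0.37 (SD, n = 29) and -0.00316 ± 0.59 (SD, n = 12) gave a log2 difference of 1.13 (standard error 0.15, 2.19-fold, limma adjusted p = 1.08e-06).

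Eng spanned -1.70 to 0.23 (median -1.10) in epithelial and -1.15 to 0.87 (median -0.29) in spindle cell tumors, and 11 of 12 spindle cell tumors were above the epithelial median. The log2 difference was 0.80 (standard error 0.17, limma adjusted p = 0.00111). Kdr, the receptor through which VEGF-A drives endothelial growth, spanned -1.04 to 0.47 (median -0.58) in epithelial and -0.38 to 0.68 (median -0.03) in spindle cell tumors. All 11 spindle cell tumors with a value were above the epithelial median, and the log2 difference was 0.56 (standard error 0.13, limma adjusted p = 0.0027). A different Kdr probe, dimmer on average and spotted 10 times on each array, gave a log2 difference of 0.15 (standard error 0.23) that was not called, and the probes correlated at 0.30 over the epithelial tumors. With the mean over both probes Kdr was 0.42 higher and was not called (limma adjusted p = 0.114).

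The other receptors and Vwf did not pass the test. Flt1 had medians of -0.37 in epithelial and -0.37 in spindle cell tumors, with 6 of 12 spindle cell tumors above the epithelial median, and a log2 difference of -0.01 with a 95% confidence interval from -0.45 to 0.44 (limma adjusted p = 0.987). A Flt1 probe 73081 bases further upstream gave 0.41 (standard error 0.22), which was not called either. Tek had medians of -1.73 and -1.41 and a log2 difference of 0.28 with an interval from -0.37 to 0.92 (limma adjusted p = 0.578). For Vwf the medians were -1.93 and -2.25 and the log2 difference was -0.03 with an interval from -0.84 to 0.79 (limma adjusted p = 0.973), and a dimmer Vwf probe gave -1.12 (standard error 0.58), which was not called. In spindle cell tumors Vwf varied most of the 10 genes, with a standard deviation of 1.73. It was 1.59 in M32L and 0.78 in M76R and between -3.77 and -1.14 in the other 10.

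**Figure D2:**
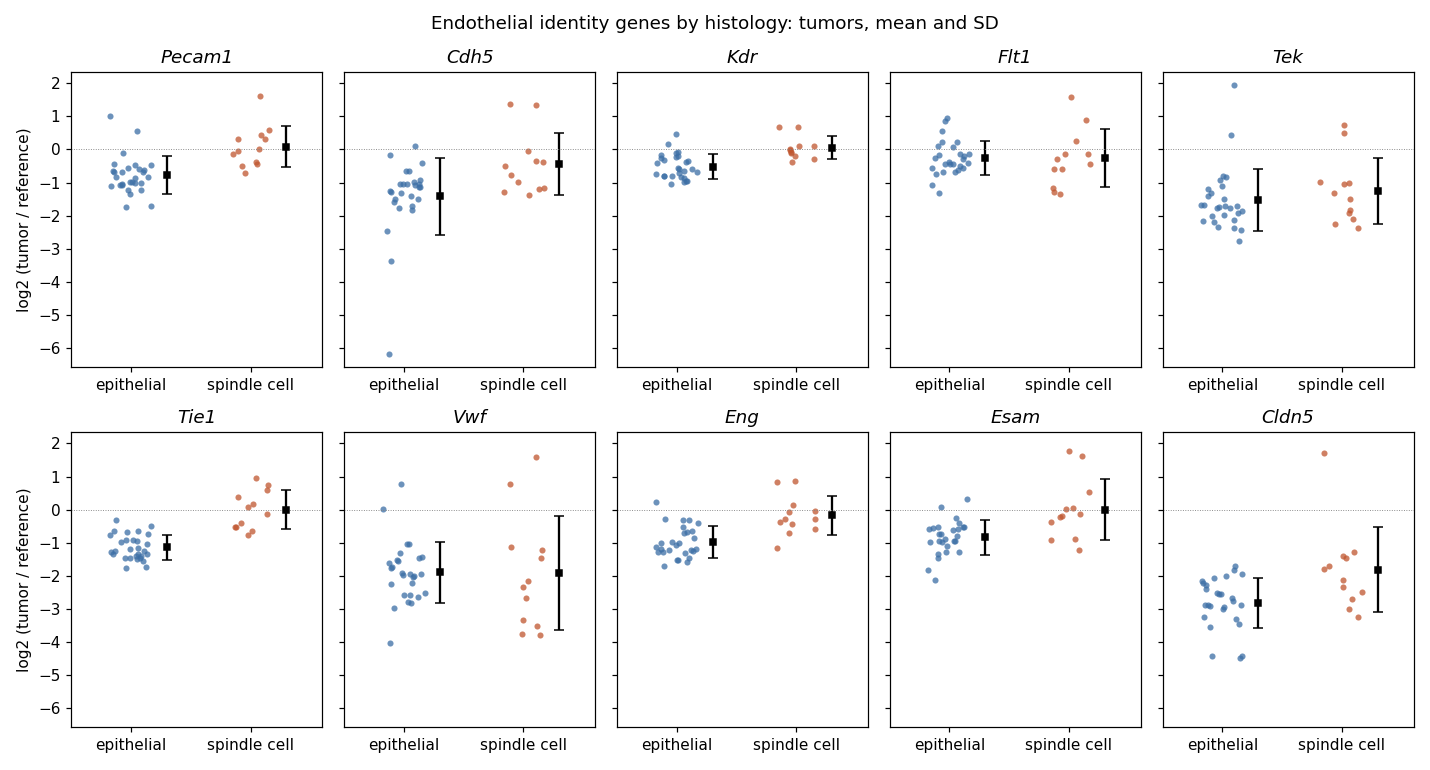
Log2 ratio of tumor over reference for each gene in 29 epithelial and 12 spindle cell tumors (points), with the mean and standard deviation as a square and bar. Tie1 separated the histologies best, with 7 of 12 spindle cell tumors above every epithelial tumor, whereas the mean difference was -0.01 for Flt1 and -0.03 for Vwf.

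A ratio can differ because the tumor or the reference channel does. The same type of reference RNA was used on every array, though whether it was 1 lot is not stated. Each channel was therefore also compared alone, as log2 of its processed signal minus the array's 75th percentile. In the tumor channel, Pecam1 was 0.98 higher in spindle cell tumors (standard error 0.18, limma adjusted p = 0.000231), Cdh5 1.30 higher (adjusted p = 0.016), Tek 0.87 higher (adjusted p = 0.0122) and Tie1 0.55 higher (adjusted p = 0.0197). Kdr, Eng, Esam and Cldn5 differed by 0.30, 0.22, 0.14 and 0.42 there and were not called. In the reference channel, the signal was lower on the spindle cell arrays, with differences of -0.57 for Eng, -0.68 for Esam, -0.57 for Cldn5 and -0.55 for Tie1 (limma adjusted p of 1.22e-08, 8.21e-12, 3.74e-14 and 6.24e-07). For Eng, Esam, Cldn5 and Tie1 the difference was thus larger in the reference channel than in the tumor channel, though for Tie1 they were near equal in size (-0.553 and 0.545), and the same held for 1337 (31.7%) of the 4220 genes called. The reference signal was higher on the spindle cell arrays for Cdh5 by 0.33 (adjusted p = 9.39e-07) and for Flt1 by 0.12 (adjusted p = 0.0116), and lower for Vwf, with a difference of -0.39 (adjusted p = 4.7e-10). For Tek the reference differed by 0.63 (standard error 0.31, adjusted p = 0.0901) and was not called, though the estimates of both channels were above 0 for Cdh5 and for Tek. The standard deviation of the Tek reference was 1.90 over the HFD epithelial arrays and 0.13 to 0.21 in the other regimens. Without 42L4B, 60L and M86R the Tek ratio differed by 0.49 between the histologies (limma adjusted p = 0.149). Pecam1 and Tie1 were called in the ratio and in the tumor channel, and the reference channel of Pecam1 differed by 0.15 (adjusted p = 0.512).

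**Figure D3:**
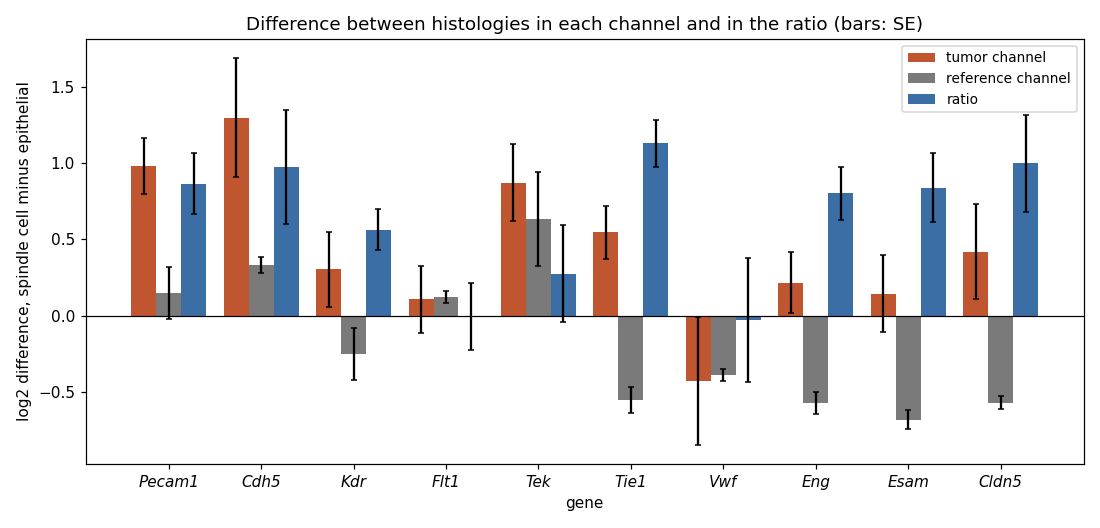
Log2 difference between spindle cell and epithelial tumors in the tumor channel, the reference channel and their ratio for each gene, with standard errors as bars. For Pecam1 and Cdh5 the difference was larger in the tumor channel (0.98 and 1.30), and for Eng, Esam and Cldn5 it was larger in the reference channel (-0.57, -0.68 and -0.57). For Tie1 the channels differed by near equal sizes (0.545 and -0.553).

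Among 27 other genes of the endothelium, 9 were called higher in spindle cell tumors and none lower, where 7.93% of all genes were called higher and 12.2% lower. Of the 27, 26 differed upwards, with a median log2 difference of 0.56. The largest were Sox18, a transcription factor of the endothelium, at 1.13, Myct1 at 1.08 and Adgrl4, an adhesion receptor of vessels, at 0.98 (limma adjusted p of 0.000142, 9.3e-06 and 0.0239), the last measured by a probe under its older name Eltd1. Of 12 arterial and tip cell genes 4 rose and none fell, with a median of 0.31, led by the connexin Gja5 at 1.80, the apelin receptor Aplnr at 1.41 and Notch4 at 0.92. Of 8 venous, activated and lymphatic endothelial genes 1 rose, Flt4 (VEGFR3, a lymphatic receptor), by 1.08, and the list median was 0.32. Of 10 ligands of the receptors above only Tgfb1 was called, higher by 1.02. Vegfa, the main ligand of Kdr, differed by 0.14 (limma adjusted p = 0.706) and Angpt2, a ligand of Tek, by 0.79 (limma adjusted p = 0.0791). A single call in these lists of 8 and 10 genes was near the share of all genes called higher, 7.93%.

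Genes of other cell types were compared between the histologies too, and their part in the endothelial values was not tested. Over all genes tested, 7.93% were called higher and 12.2% lower, and 1 called gene in a list of 10 or 12 was near these shares. Of 12 pericyte genes, which mark the cells that wrap small vessels, Pdgfrb was higher by 0.92 and Cox4i2 lower, with a difference of -0.58 and a list median of 0.04. Of 8 fibroblast genes the collagens Col1a2, Col1a1 and Col3a1 rose, by 1.22, 1.22 and 1.20, and the list median was 0.83. The mean log2 ratio of the fibroblast list spanned -3.57 to -0.29 in epithelial and -3.12 to 0.75 in spindle cell tumors. Of 10 macrophage genes Cd163 rose by 1.95 (its tumor signal was well above background on 17 of 29 epithelial and 12 of 12 spindle cell arrays), with a list median of 0.27 and list means of 0.47 to 2.46 in epithelial and 0.97 to 2.51 in spindle cell tumors. Of 7 platelet genes Ppbp and Gp1bb rose, by 2.04 and 0.86, and Gp6 fell by 0.97, with list means of -3.80 to -1.89 in epithelial and -3.60 to -1.11 in spindle cell tumors. Ppbp was well above background on 9 of 29 epithelial and 7 of 12 spindle cell arrays, and Gp6 on 16 and 1, so that many of the signals behind these differences were not well above background. None of 8 leukocyte, 7 adipocyte or 3 erythroid genes passed. The largest differences there were -0.88 for Cd3g and -0.67 for Cd2, -0.83 for Plin1 and 0.72 for Lipe, and 0.38 for Hba-a1 and -0.16 for Hbb-b1. Of 7 skeletal muscle genes Ckmt2 and Mylpf were lower, with differences of -0.64 and -0.58, and Mylpf was well above background on 18 of 29 epithelial and 1 of 12 spindle cell arrays. All 9 epithelial genes were lower in spindle cell tumors in their estimate, with differences of -0.95 for Cldn3 and -0.77 for Epcam, but none passed, and list means spanned 0.27 to 4.66 (median 1.37) in epithelial and -1.86 to 1.82 (median 1.32) in spindle cell tumors.

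When the spindle cell tumors M32L, M76R and M86R, chosen after the data were seen, were left out, 5 of the 10 genes were called higher and Cldn5 was not (0.66, limma adjusted p = 0.0829). Pecam1 was then 0.61 higher (adjusted p = 0.0253) and Tie1 1.04 (adjusted p = 1.62e-05). The count of other endothelial genes fell from 9 to 4.

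Diet was compared first within the epithelial tumors. By limma's F-test over the 4 regimens none of the 10 genes was called (adjusted p under 0.10), where 0.473% of all genes were, and 4 of the 10 had an unadjusted p under 0.05 with 12.9% of all genes. None was called in HFD against LFD, HFD-LFD against LFD or LFD-HFD against LFD, where 0%, 1.25% and 0% of all genes were, nor in the mean of the 3 regimens with HFD against LFD (any HFD), where 0.158% were. In HFD against LFD, 5 of the 10 had an unadjusted p under 0.05, with 9.42% of all genes. It was 1 of the 10 in HFD-LFD against LFD (13.6% of all genes), 0 in LFD-HFD against LFD (6.55%) and 3 for any HFD (9.86%). The estimates for any HFD were above 0 for 7 of the 10 genes, with a median of 0.26 against -0.03 over all genes. The median over the 10 was 0.54 in HFD, -0.04 in HFD-LFD and 0.15 in LFD-HFD, each against LFD. Lowest adjusted p-values were 0.217 for the regimens and 0.295 for any HFD, both for Pecam1.

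Pecam1 had its lowest median in LFD tumors. The 8 LFD tumors spanned log2 ratios of -1.75 (13L) to -0.84 (11L), with a median of -1.13. The 8 HFD tumors spanned -1.07 (40R4A) to 1.01 (60L), with a median of -0.53. The medians of HFD-LFD and LFD-HFD were -0.64 and -0.86, within -1.36 to -0.45 and -1.11 to -0.66. The ranges of all regimens overlapped. The group means were -1.22 ± 0.33 (SD, n = 8) in LFD and -0.30 ± 0.75 (SD, n = 8) in HFD, a log2 difference of 0.92 with a 95% confidence interval from 0.44 to 1.40 that did not pass over all genes (limma adjusted p = 0.357). The difference from LFD was 0.47 in HFD-LFD and 0.37 in LFD-HFD tumors (limma adjusted p of 0.399 and 0.894). In the tumor channel alone the HFD-LFD difference was 0.73 and was called (limma adjusted p = 0.0131), as it was with a random block for slide (0.72, adjusted p = 0.0417), and LFD and HFD-LFD arrays shared no slide. The ratios of 1.01 in 60L and 0.56 in 42L4B stood on low reference channels, at -3.33 and -2.66 (log2 of the signal minus the array's 75th percentile), where the mean of the LFD arrays was -0.89. Their tumor channels, at -1.73 and -1.995, lay within and below the range of the other 6 HFD tumors, -1.88 to -1.003. Without 42L4B, 60L and M86R the difference was 0.56 (limma adjusted p = 0.4). For any HFD the log2 difference was 0.59, with an interval from 0.18 to 0.99 (unadjusted p = 0.00579, limma adjusted p = 0.295). It was called with no background correction (0.64, adjusted p = 0.0729) and in the tumor channel alone (0.55, adjusted p = 0.0505), the latter not with a random block for slide (0.54, adjusted p = 0.15).

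Eng had a median of -1.39 in LFD and of -0.53 in HFD tumors, a log2 difference of 0.74 with an interval from 0.30 to 1.17 (limma adjusted p = 0.401). Cdh5 had medians of -1.55 and -0.82 and a difference of 1.30 with an interval from 0.11 to 2.49 (limma adjusted p = 0.494), for which 13L is among the LFD tumors. Tek had medians of -1.70 in LFD and -1.44 in HFD tumors and a difference of 0.76, which was 0.04 without 42L4B, 60L and M86R. The highest Tek values, 1.94 in 60L and 0.42 in 42L4B, were the only ones of epithelial tumors above 0. The Tek reference channel had a mean of -3.06 ± 1.90 (SD, n = 8) on HFD and -2.12 ± 0.13 (SD, n = 8) on LFD arrays. The tumor channel means of Tek were -3.92 and -3.83. The Tek reference was well above background on 27 of 29 epithelial arrays. Cldn5, Kdr and Tie1 had differences of 0.68, 0.41 and 0.36 between HFD and LFD, and Esam, Flt1 and Vwf of 0.13, -0.03 and -0.08, none of which was called. In the same contrast the fibroblast list had a median of 0.82 with all 8 genes above 0 and none called. The median over the 27 other endothelial genes was 0.38.

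The diet value of Kdr, the main VEGF receptor, depended on the channel and the probe. LFD tumors spanned log2 ratios of -1.04 to -0.21 (median -0.86) and HFD-LFD tumors -0.68 to 0.47 (median -0.38), a difference of 0.51 (standard error 0.17, limma adjusted p = 0.184). In the tumor channel alone the difference was 1.74 (limma adjusted p = 3.5e-05). With the mean over both Kdr probes the difference of the ratios was 0.17 (limma adjusted p = 0.857), and for any HFD the dimmer probe gave -0.09 where the probe used gave 0.33. The reference channel moved along with it, with a mean of -0.16 ± 0.35 (SD, n = 8) on the LFD arrays and of 1.04 ± 0.34 (SD, n = 7) on the HFD-LFD arrays. The reference value for Kdr ran from -0.71 to 1.45 over the epithelial arrays, and LFD and HFD-LFD arrays shared no slide, so that slide and regimen cannot be told apart for Kdr.

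**Figure D4:**
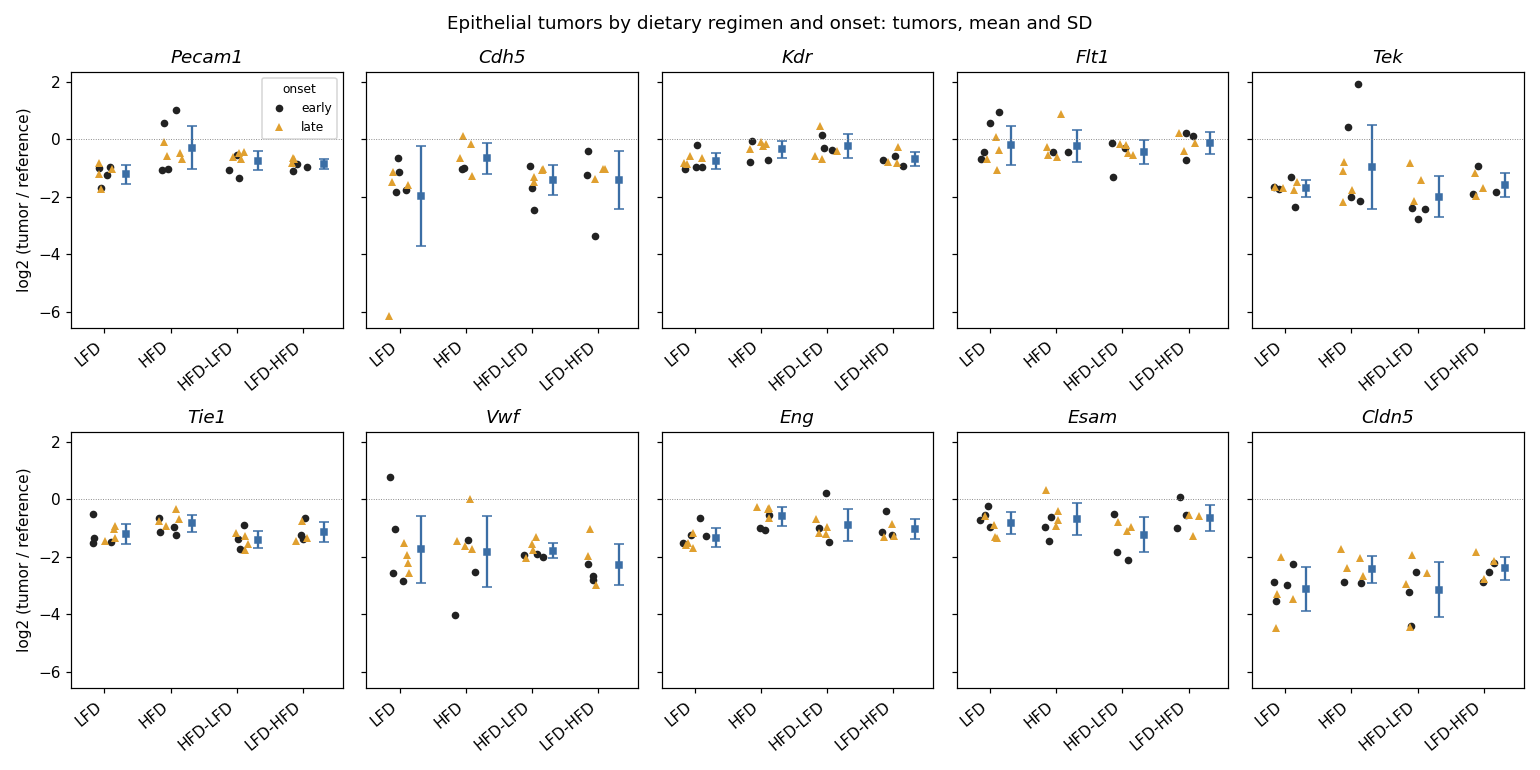
Log2 ratio of tumor over reference for each gene in epithelial tumors by dietary regimen, with early tumors as circles, late tumors as triangles, and the mean and standard deviation as a square and bar. The regimens overlapped for every gene, and the high Pecam1 and Tek values of HFD belong to the early tumors 60L and 42L4B.

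In the spindle cell tumors, with 3 per regimen, none of the 10 genes was called between the regimens by limma's F-test, with 0% of all genes called, and the lowest adjusted p was 0.977. None had an unadjusted p under 0.05, where 3.74% of all genes had. Pecam1 was -0.45, 0.31 and 0.60 in the LFD tumors M18L, M33R and M32L, and -0.49, -0.38 and 0.44 in the HFD tumors M56LA, M54R and M63L. It was -0.72, -0.15 and 0.01 in the HFD-LFD tumors M128L, M129L and M118R, and -0.06, 0.31 and 1.62 in the LFD-HFD tumors M84R, M86R and M76R. The regimens overlapped for Pecam1 and 8 of the other genes, and for Flt1 the HFD-LFD tumors, -1.33 to -0.59, all lay below the LFD tumors, -0.28 to 1.59. With 3 tumors per regimen such a gap can arise by chance, and its share over all genes was not counted. Any HFD against LFD, with 0% of all genes called and none of the 10 at an unadjusted p under 0.05 (3.54% of all genes), gave estimates below 0 for 8 of the 10 genes and a Pecam1 difference of -0.09 with a 95% confidence interval from -0.93 to 0.76. In the same contrast all 7 adipocyte genes were below 0 (median -1.46), as were 10 of 12 pericyte genes (median -0.67), with none called, and their part in the endothelial estimates was not tested. The difference of the HFD effect between the histologies was tested directly and passed for none of the 10 genes, with 0.00957% of all genes called. Of the 10, 1 had an unadjusted p under 0.05, namely Eng, where 4.95% of all genes had. The HFD effect on Eng in spindle cell minus that in epithelial tumors was -0.86 (interval from -1.58 to -0.14, limma adjusted p = 0.994).

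Pubertal diet was compared over all 41 tumors, 21 with HFD in puberty and 20 without it. None of the 10 genes passed an adjusted p of 0.10, with 0.00956% of all genes called. The estimates ran from -0.42 for Vwf to 0.34 for Kdr, and 1 of the 10, Kdr, had an unadjusted p under 0.05, where 6.94% of all genes had. For Kdr the means were -0.19 ± 0.37 (SD, n = 20) with and -0.53 ± 0.45 (SD, n = 19) without HFD in puberty, and the ranges overlapped (limma adjusted p = 0.632). Pecam1 differed by 0.20 with an interval from -0.23 to 0.64.

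Early and late epithelial tumors were compared for the same genes. None of the 10 was called, with 0.143% of all genes called, and none had an unadjusted p under 0.05, where 13.2% of all genes had. Pecam1 spanned -1.70 (31R) to 1.01 (60L), median -1.04, in 14 early tumors and -1.75 to -0.11, median -0.68, in 15 late tumors, a log2 difference of -0.07 with an interval from -0.50 to 0.36 (limma adjusted p = 0.917). With all tumors kept, the largest estimate was that of Vwf, -0.38, with an interval from -1.06 to 0.30. The other 9 lay between -0.23 and 0.07. The early group holds 60L and 42L4B, whose Pecam1 ratios stood on low reference channels and whose Tek ratios were the highest. Over 18 alternatives the estimate ran from -0.47 to 0.01 for Pecam1, from -0.57 to 0.14 for Tek and from -0.95 to 0.17 for Vwf. The small estimates of Pecam1 and Tek thus depend on the tumors and processing used. None of the 10 was called without 42L4B, 60L and M86R.

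**Figure D5:**
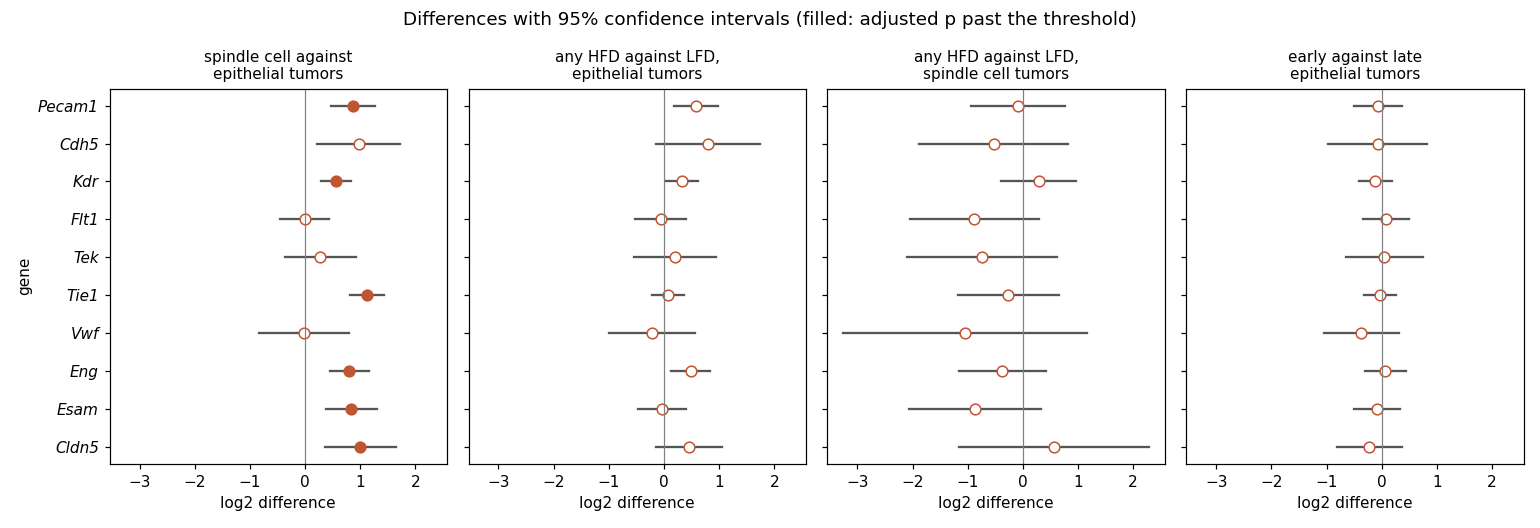
Log2 differences of the 10 genes with 95% confidence intervals in 4 comparisons, with filled points for an adjusted p past the threshold (0.05 for histology, 0.10 for the others). Filled points occur in the comparison of histologies only, for 6 genes, and the intervals of the spindle cell diet comparison are the widest.

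The genes were also compared with each other over the epithelial tumors. Of 9 relations with Pecam1, 3 passed a Benjamini-Hochberg adjusted permutation p of 0.05 by Pearson's r and 4 by Spearman's rho (100000 resamples, two-sided). Tek had an r of 0.80 (n = 28, permutation p = 4e-05, adjusted p = 0.00036) and a rho of 0.45 (permutation p = 0.0177, adjusted p = 0.0399), and its r was 0.42 without 42L4B and 60L, the tumors farthest from the Pecam1 median. The Pecam1 ratios of these tumors stood on low reference channels. In the tumor channel alone the r of Tek was 0.45 (n = 28, adjusted permutation p = 0.0472). Cdh5 had an r of 0.59 (n = 27, permutation p = 0.00134, adjusted p = 0.00603) and a rho of 0.51 (adjusted permutation p = 0.0205), and an r of 0.60 without 13L and 31R. Cldn5 had an r of 0.52 (n = 27, permutation p = 0.00478, adjusted p = 0.0143) and a rho of 0.52 (adjusted permutation p = 0.0205), and an r of 0.56 without the same pair. Eng passed by rho only, with an r of 0.41 (n = 28, permutation p = 0.0299, adjusted p = 0.0673) and a rho of 0.52 (adjusted permutation p = 0.0205), and an r of 0.32 without 13L and 42L4B.

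Tie1, Vwf, Kdr, Esam and Flt1 did not pass, with r of 0.34, -0.24, 0.09, 0.07 and 0.04 (adjusted permutation p of 0.12, 0.324, 0.812, 0.812 and 0.843). Their r without the 2 tumors farthest from the Pecam1 median was 0.28, -0.04, 0.22, 0.37 and 0.46, and their rho was 0.34, 0.19, 0.25, 0.15 and 0.12 (adjusted permutation p of 0.124, 0.424, 0.314, 0.522 and 0.557). Over all 45 pairs of the 10 genes the median r was 0.28, from -0.44 to 0.80, and 10 pairs exceeded 0.5. Cldn5 and Tie1 had the highest mean r with the other 9, at 0.41 and 0.40, and Kdr the lowest, at 0.07. These ratios share the tumor RNA and the array, so the pairs are not independent.

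The 8 genes outside the list with a pattern most like the mean of the 10 standardised log2 ratios over the epithelial tumors were Exoc3l (r = 0.84), Gpr4 (0.79), Wnt5a (0.74), Robo4 (0.74), Parvb (0.73), Prss23 (0.73), Antxr2 (0.73) and Cd34 (0.72), as a description over 28 to 29 tumors. A tumor's mean used only the genes with a value, which were 3 in 60L and 7 in 42L4B. Before standardising, the mean log2 ratio was 0.66 in 60L and -0.40 in 66L, the next highest epithelial tumor. The ranking was not repeated without 60L. Robo4 and Cd34 are known endothelial genes, and 8 of the 27 other endothelial genes were among the 50 genes of highest r out of 15134 with a symbol. Between the histologies 4 of the 8 were called higher in spindle cell tumors, where 7.93% of all genes were, and the epithelial tumors that gave the choice are 1 arm of this comparison. Gpr4, a proton-sensing receptor, was higher in spindle cell tumors by 1.27 (limma adjusted p = 5.45e-06), Exoc3l by 0.98 (adjusted p = 0.00087), Parvb by 1.37 (adjusted p = 0.00283) and Robo4 by 0.60 (adjusted p = 0.0386).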

How the data were processed

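RNA of 41 tumors was hybridised with a common reference to 2-color Agilent arrays, 1 tumor per array. The authors deposited the scanner output of each array, whose processed intensity in both channels is background-subtracted and dye-normalized by Agilent Feature Extraction (version 11.0.1.1 per the file headers for epithelial and 10.5.1.1 for spindle cell tumors, 8.5.1.1 in the submitters' processing notes), and a matrix of filtered, Lowess normalized and imputed log2 ratios. The matrix holds 1 column per tumor, with medians from -0.04 to 0.05, and was used as an alternative. Matrix columns correlated with a scanner file of the same label at 0.884 to 0.99 across probes for 38 tumors. The columns of 40R4A, 57R and 65R matched the files of 57R, 65R and 40R4A best, at 0.985, 0.981 and 0.979.

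The log2 of rProcessedSignal over gProcessedSignal was computed for 43020 spots. Outlier spots were left missing, spots of a probe averaged, and probes dropped unless Cy5 and Cy3 signals exceeded 10 on 80% of arrays or more, which left 27307 of 39429 probes and 20913 genes, 1 probe per gene by mean signal. Names are those of the array design. limma 3.58.1 in R 4.3.3 tested differences with lmFit and eBayes in place of the study's SAM test, with thresholds of 0.05 for histology and 0.10 otherwise, and was tested on simulated data. The p53 variable morphology of the labels was read as epithelial. The 10 genes, the gene lists and the tests were chosen with earlier results of these data known. Named genes are the 10, up to 3 called genes of each list and direction or else the 2 of largest difference, and the 8 genes of nearest pattern. Alternatives changed the background correction, normalization, channel, filter, probe choice, slide, covariates, labels and tumors. Promoters came from RefSeq (GRCm38.p6).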

Additional observations from a re-analysis of the deposited data

Results flagged for a closer look

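In 40 tests of a gene within a regimen of the epithelial tumors, 5 values lay further from the others than Dixon's test allows, where chance alone flags about 1 in 20. Cdh5 was -3.38 in 82L among LFD-HFD tumors, whose median was -1.15, and -6.17 in 13L among LFD tumors, whose median was -1.55. Flt1 was -1.33 in the third early HFD-LFD tumor in order of accession, among HFD-LFD tumors with a median of -0.30, and 0.86 in 66L among HFD tumors with a median of -0.44. Tek was -2.35 in 31R among LFD tumors with a median of -1.70.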

How the results depend on the processing

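The count of called genes was between 4 and 7 of 10 for spindle cell against epithelial tumors in 18 alternatives, with 4 in the tumor channel alone, and between 5 and 7 with each tumor left out in turn. The 4 in the tumor channel were Pecam1, Tie1, Cdh5 and Tek, of which Cdh5 and Tek were not called in the ratio. Cldn5, Eng, Esam and Kdr, called in the ratio, were not called in the tumor channel. Tie1 and Pecam1 were called in all 18, with log2 differences from 0.55 to 1.20 and from 0.59 to 0.98. Some of the 18 could not change these calls, as the exchanged labels left histology as it was and a looser threshold keeps every call. The differences of both genes were also unchanged with no filter, the stricter filter, the mean over probes and outlier spots kept. For the other endothelial genes the count of 9 called was 3 with late tumors only and 4 without M32L, M76R and M86R (chosen after seeing the data), and 6 to 12 with each tumor left out. In the 4 regimens of epithelial tumors 1 gene was called with no background correction and 2 in the tumor channel alone. In HFD-LFD against LFD 1 gene was called with normexp and loess, with no background correction and in the authors' matrix, and 2 in the tumor channel alone, with or without slide as a random block. In any HFD against LFD 1 was called with no background correction and 2 in the tumor channel alone, 1 of them with slide as a random block added (chosen after seeing the data). In pubertal HFD against pubertal LFD 1 was called in the tumor channel alone. The genes were Kdr and Pecam1, and the cause was not tested. The share of all genes called was not kept for any of the alternatives, so these counts cannot be set against it. With each tumor left out the count was 0 in every diet, pubertal and onset comparison. The number of genes related to Pecam1 by r was 3 (Tek, Cdh5 and Cldn5), 4 with normexp (Tek, Cdh5, Tie1 and Eng) and 3 in the tumor channel (Tek, Cdh5 and Kdr), and by rho it was 4, 6 and 2. Cldn5 had an adjusted permutation p for r of 0.0552 with normexp and 0.0526 in the tumor channel, Tie1 an r of 0.57 with normexp and Kdr an r of 0.55 in the tumor channel. No paired analysis was possible because, in each comparison, the groups share fewer than 2 label numbers: 1 number is on an epithelial and a spindle cell tumor, 1 on an early and a late LFD tumor, and 1 on a pair of HFD-LFD tumors of the same group.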
